A study of Mus musculus with 3 samples.

Results

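In the bone marrow (BM) of mice given LECT2, 7 dendritic cell genes were followed: Siglech, Tcf4, Ccr9, Spib and Pacsin1 for plasmacytoid dendritic cells (pDC), and Zbtb46 and Clec9a for conventional dendritic cells (cDC). They were chosen by name as known dendritic cell genes, with earlier results of these data known, and are 7 of the 17250 gene names in the deposited tables, each with 1 row. LECT2 is a chemokine-like protein secreted by the liver. BM cells of C57BL/6 mice aged 6 to 8 weeks were flushed from leg, hip and upper arm bones after 0, 3 or 5 daily subcutaneous injections of recombinant LECT2, at 300 μg per kg body weight. The labels record no injection of any kind for the 0-day mice, so the injected and uninjected groups also differ in having been injected. Polyadenylated RNA was sequenced from cells that the methods call flushed BM cells and a supplementary figure legend calls BM mononuclear cells. There was 1 library per time point, and the number of mice in a library is not given in the sources used here. No difference between days therefore has a replicate check, and no test was possible.

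pDC and cDC arise in the BM from shared progenitors that carry the receptor Flt3. pDC are known for making large amounts of type I interferon when Tlr7 or Tlr9 meets nucleic acids, and they keep their identity through the E protein Tcf4. cDC take up antigen and present it to T cells, and carry the transcription factor Zbtb46. Both are rare cells among the granulocytes, erythroid cells and B-lineage cells of the marrow. Fewer cells of a type and less RNA per cell cannot be told apart in these bulk libraries.

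All 7 genes had reads in every library, from 18 reads for Zbtb46 at 3 days to 9485 for Spib at 5 days. Their order by RPKM (reads on a gene, scaled to transcript length and to the library's reads on genes) was the same at 0, 3 and 5 days: Spib, Siglech, Tcf4, Ccr9, Pacsin1, Clec9a and Zbtb46. Neighbours in this order had 95% Poisson intervals that did not touch at any time point. Spib stood at the 97.2nd percentile of genes with reads at 0 days and Siglech at the 90.4th, while Clec9a stood at the 46.7th and Zbtb46 at the 27.5th. After LECT2, 6 of the 7 genes were lower at 3 days and 5 of 7 were lower at 5 days, all by less than 2-fold in the deposited RPKM, and Spib was higher at both times on that scale. Beyond counting error, 4 were lower at 3 days and 5 at 5 days, beside 26.2% and 22.3% of all genes with at least 1 RPKM in either library.

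**Figure D1:**
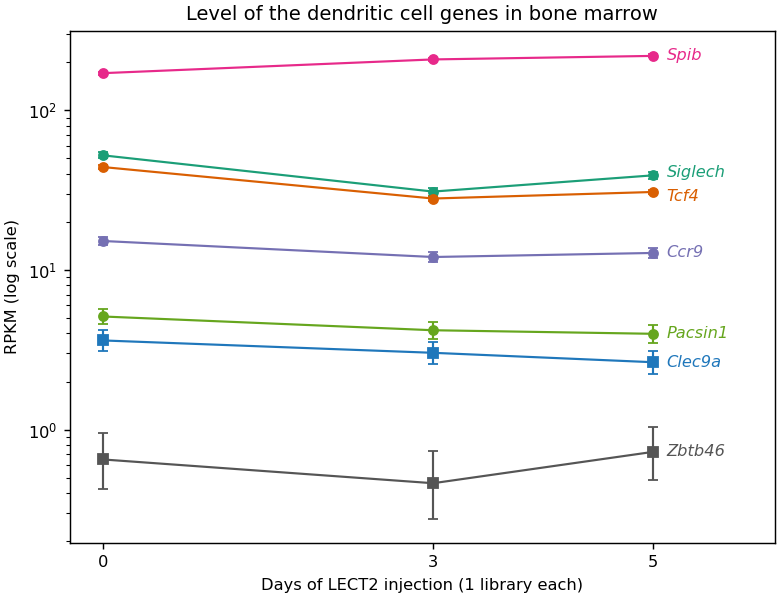
RPKM on a log scale against days of LECT2 injection for the 7 genes, with circles for pDC genes, squares for cDC genes and bars for 95% Poisson intervals of the reads (1 library per day). The order of the genes is the same at all 3 days, Siglech and Tcf4 are lowest at 3 days and Spib is higher at 3 and 5 days in these deposited values; under TMM scaling Tcf4 was lowest at 5 days instead, and the Spib log2 ratio at 5 days was 0.05, or −0.026 with the length trend removed.

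The regions before the start sites of Siglech, Ccr9 and Spib are shown as examples with and without a match to 3 forms of the E-box (CANNTG), the motif that E proteins such as Tcf4 bind. The 250 bases upstream of the RefSeq start site (GRCm38.p6) were searched for CAGGTG, for its reverse complement CACCTG, and for CAGCTG, which reads the same on both strands. Capitals mark a match, and other forms of CANNTG, which were not searched, stay in lower case. Siglech lies at chr7:55767934-55768183 on the plus strand, Ccr9 at chr9:123766961-123767210 on the plus strand, and Spib at chr7:44532072-44532321 on the minus strand, each written 5′ to 3′.
Siglech: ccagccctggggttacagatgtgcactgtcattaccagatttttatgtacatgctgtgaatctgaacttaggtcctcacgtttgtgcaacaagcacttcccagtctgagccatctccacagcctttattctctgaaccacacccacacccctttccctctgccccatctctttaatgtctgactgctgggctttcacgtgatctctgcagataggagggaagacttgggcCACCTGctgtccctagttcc
Ccr9: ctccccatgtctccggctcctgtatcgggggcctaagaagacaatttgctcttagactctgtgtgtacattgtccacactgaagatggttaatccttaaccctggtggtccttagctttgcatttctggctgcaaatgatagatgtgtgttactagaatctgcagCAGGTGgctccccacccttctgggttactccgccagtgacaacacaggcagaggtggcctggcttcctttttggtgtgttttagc
Spib: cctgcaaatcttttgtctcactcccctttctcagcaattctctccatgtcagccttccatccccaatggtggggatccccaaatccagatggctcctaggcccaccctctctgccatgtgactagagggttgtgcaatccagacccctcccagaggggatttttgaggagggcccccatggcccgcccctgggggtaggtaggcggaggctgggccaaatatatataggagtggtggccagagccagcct
The match of Siglech ended 14 bases before its start site and that of Ccr9 79 bases before, and Spib had no match to these 3 forms in this window. Of the 6 members with a window searched, 3 held a match, namely Siglech, Ccr9 and Zbtb46 (CACCTG in the latter). Pacsin1 and Clec9a, which were lower after LECT2, had none, and neither had Spib. The window of Tcf4 is not shown or counted here. Of 32851 promoter windows of the same length, 27.7% held at least 1 of the 3 motifs. The windows of Ccr9, Pacsin1 and Zbtb46 lie wholly inside the GENCODE spans of these genes, so other transcripts of them start further upstream. A match is a description of the letters only.

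Siglech encodes a sialic acid-binding lectin that marks mouse pDC and signals through the adaptor Tyrobp. It sits on the plus strand of chromosome 7, between 55768178 and 55778925, and its longest transcript has 5 exons (positions of all genes are from GENCODE M21 on GRCm38). The 0, 3 and 5 day libraries held 1946, 1125 and 1457 of its reads, which gave 52.3, 31.0 and 39.2 RPKM. The library of 0 days was the highest and that of 3 days the lowest. Changes are given as the log2 ratio of RPKM + 0.1, later over earlier, followed by a 95% Clopper-Pearson interval (exact) that covers counting error only. For Siglech this ratio was −0.75 (−0.86 to −0.65) at 3 days and −0.42 (−0.52 to −0.32) at 5 days, so that the later level was 59.2% and 74.9% of that at 0 days. Its ratio from 3 to 5 days was 0.34 (0.23 to 0.45) as deposited, 0.11 under TMM scaling and 0.08 with the length trend removed. Among all genes with at least 1 RPKM in either library, the ratio of Siglech at 3 days stood at the 5.6th percentile.

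Tcf4 encodes the E protein that sets and keeps the pDC fate, and is also expressed in B-lineage cells. It sits on the plus strand of chromosome 18, between 69343356 and 69689079, and is the longest of the 7 transcripts in the tables, with 7462 bases. Its 5116, 3168 and 3567 reads gave 44.2, 28.0 and 30.8 RPKM in the libraries of 0, 3 and 5 days. Both libraries of injected mice were below that of 0 days. The log2 ratio was −0.65 (−0.72 to −0.59) at 3 days and −0.52 (−0.58 to −0.46) at 5 days, and the later levels were 63.5% and 69.8% of that at 0 days. The level ratio of Siglech over Tcf4 per length lay between 1.11 and 1.27 over the 3 libraries, with no correction for the length trend, which lowers Tcf4 more (−1.35 at 5 days) than Siglech (−0.71).

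Ccr9 encodes the receptor for the chemokine Ccl25, is carried by pDC that home to the gut, and is also known from T cells in the thymus. The gene sits on the plus strand of chromosome 9, between 123678439 and 123784330. Its 1036, 802 and 871 reads gave 15.2, 12.1 and 12.8 RPKM in the same order. The log2 ratio was −0.33 (−0.47 to −0.20) at 3 days and −0.25 (−0.38 to −0.12) at 5 days, and the latter was −0.86 with the length trend removed. The T and NK cell markers were lower as well, with summed levels of 82.0, 43.7 and 53.6 RPKM, all 10 of 10 genes being lower at 3 days. Their part in the change of Ccr9 was not tested. In GENCODE, a gene model on the opposite strand (AC165425.1) shares 1932 bases, or 18.8% of the exon bases of Ccr9, a lincRNA (Gm17200) shares 269 bases and the coding gene Slc6a20a 22. The library kit does not mark the strand, so reads in these bases cannot be told apart.

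Pacsin1 encodes a membrane-bending adaptor that among blood cells is known from pDC, where it takes part in the interferon response. It sits on the plus strand of chromosome 17, between 27655509 and 27711482. Its 325, 260 and 253 reads gave 5.11, 4.19 and 3.98 RPKM at 0, 3 and 5 days. The log2 ratio was −0.28 (−0.53 to −0.05) at 3 days and −0.35 (−0.60 to −0.12) at 5 days, and the latter was −0.94 with the length trend removed. From 3 to 5 days it was −0.07 (−0.33 to 0.18), within counting error. Its relative Pacsin2, which is expressed in many tissues, went the other way in the deposited RPKM, from 21.7 to 28.1 and 32.3.

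Spib encodes an Ets family transcription factor that acts beside Tcf4 in pDC and is also expressed in B cells. It sits on the minus strand of chromosome 7, between 44525993 and 44532071, with 6 exons. It had 7396, 8800 and 9485 reads, or 171, 209 and 219 RPKM, at 0, 3 and 5 days. Both later libraries were above that of 0 days, with a log2 ratio of 0.29 (0.24 to 0.33) at 3 days and 0.36 (0.32 to 0.40) at 5 days. Across the 11144 genes averaging 1 RPKM or more, the medians were 0.10 (3 days) and 0.31 (5 days), so at 5 days Spib was close to the typical gene. The 5-day log2 ratio of Spib was 0.05 under TMM scaling (edgeR) and −0.026 once the trend on gene length was removed. Spib over Siglech per length was 3.27, 6.73 and 5.60 in the libraries of 0, 3 and 5 days.
The B cell markers went both ways, with 6 of 12 expressed genes below 0 at 3 days and 8 of 12 at 5 days. Cd79a and Cd79b, parts of the B cell receptor complex, went from 827 and 523 RPKM at 0 days to 532 and 372 at 5 days. The summed level of the 13 B cell markers was 2160, 1783 and 1625 RPKM over the 3 libraries, a sum that Cd79a and Cd79b dominate, with none of the 12 expressed genes 2-fold lower and 2 of them (Rag1 and, named after its values were seen, Rag2, which cut the antigen receptor genes) 2-fold higher at 5 days. Of all genes 15.4% were 2-fold higher and 5.71% lower at 5 days, so these counts are no result about B cell genes. Under TMM scaling 0 of the 12 were 2-fold higher and 1 was 2-fold lower at 5 days, beside 7.12% and 9.74% of all genes. With the length trend removed 0 were higher and 0 lower, beside 4.96% and 7.43%. At 3 days 1 (Rag1) was 2-fold higher as deposited and 0 lower, beside 4.00% and 2.21% of all genes. Rag1 kept this 3-day call under TMM scaling but not with the length trend removed. The share of Spib reads that came from B-lineage cells was not tested. The row of Spib also carries a description of DNA polymerase delta, whose gene Pold1 lies 674 bases away on the same strand and shares no exon base with Spib in GENCODE. The table's own row for Pold1 had 32.6, 31.3 and 47.7 RPKM.

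Clec9a encodes a receptor for actin filaments of dead cells, and marks the cDC that cross-present antigen. The gene sits on the plus strand of chromosome 6, between 129408862 and 129424763. Its 185, 151 and 135 reads gave 3.62, 3.03 and 2.64 RPKM at 0, 3 and 5 days. The log2 ratio was −0.25 (−0.58 to 0.06) at 3 days, an interval that reaches 0, and −0.44 (−0.78 to −0.13) at 5 days. The 5-day value was −0.74 under TMM scaling and −0.92 with the length trend removed. The neighbouring gene Clec1b shares 184 exon bases with Clec9a, 5.59% of the exon bases of Clec9a, and went from 4.51 to 3.44 and 2.04 RPKM. How reads in the shared bases were counted is not given in the sources used here.

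Zbtb46 encodes a transcription factor that separates cDC from monocytes and macrophages, and is also known from endothelial cells and erythroid progenitors. The gene sits on the minus strand of chromosome 2, between 181387762 and 181459426. It had 26, 18 and 29 reads, or 0.650, 0.461 and 0.725 RPKM, at 0, 3 and 5 days. The log2 ratios were −0.42 (−1.45 to 0.43) at 3 days and 0.14 (−0.66 to 0.98) at 5 days, and no difference was detectable at this depth. The tables give it 2577 bases, whereas its longest GENCODE transcript has 5309. Endothelial markers summed to 51.3, 41.8 and 52.4 RPKM and erythroid markers to 479, 614 and 464 RPKM at 0, 3 and 5 days. Their part in the reads of Zbtb46 was not tested. With Zbtb46 this low, the label of cDC rests on Clec9a and on the other cDC genes.

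None of the 7 genes was at least 2-fold higher or lower in any pair of days, counted among the 6 with at least 1 RPKM. Among the 11325 genes that reached 1 RPKM in the first pair, 4.00% passed 2-fold upward by 3 days and 2.21% passed it downward. At 5 days 15.4% of 11497 genes were 2-fold higher and 5.71% were 2-fold lower. Between 3 and 5 days these shares were 1.85% and 3.36% of 11375 genes. Set against these shares, a count of 0 among 6 genes is no result about the members.
By the counting interval, 4 members (Siglech, Tcf4, Ccr9 and Pacsin1) were below their level of 0 days at 3 days and 1 (Spib) was above it, where 26.2% of all genes were below and 41.1% above. By 5 days Clec9a joined those below, giving 5 below and 1 above, where 22.3% of all genes were below and 55.1% above. Between 3 and 5 days 3 members (Siglech, Tcf4 and Spib) were above and 0 below, where 54.4% of all genes were above and 15.3% below. This pair depended on the scaling, because Tcf4 (−0.087) and Spib (−0.15) turned negative under TMM scaling, where 5 of the 7 members were below 0. The comparisons of 3 and 5 days share the library of 0 days, so they are not separate evidence.
For the 7 members, the median was −0.33 (3 days), −0.35 (5 days) and 0.08 (from 3 to 5 days). Some features of the libraries move these values. At 0, 3 and 5 days the 100 most abundant genes held 24.8%, 19.6% and 13.5% of reads, and the median ratio of all genes was above 0 as given above. Log2 ratios also rose with gene length, from a median of −0.43 among genes of up to 1050 bases to 0.85 among genes of over 5800 bases at 5 days, and from −0.49 to 0.55 at 3 days. TMM scaling took the members' median to −0.42 at 3 days and −0.65 at 5 days, and removal of the length trend took it to −0.59 and −0.86. The median from 3 to 5 days turned to −0.14 and −0.19 under the same 2 settings. Tcf4 moved most. Its log2 ratio after removal of the length trend was −1.19 and −1.35 at the 2 times, more than 2-fold lower. With that trend removed 1.62% of all genes were 2-fold lower at 3 days and 7.43% at 5 days. At a 1.5-fold threshold Siglech and Tcf4 were lower at 3 days as deposited, 2 of the 6 members with at least 1 RPKM, beside 9.80% of all genes. At that threshold 0 members were lower at 5 days or between 3 and 5 days.

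**Figure D2:**
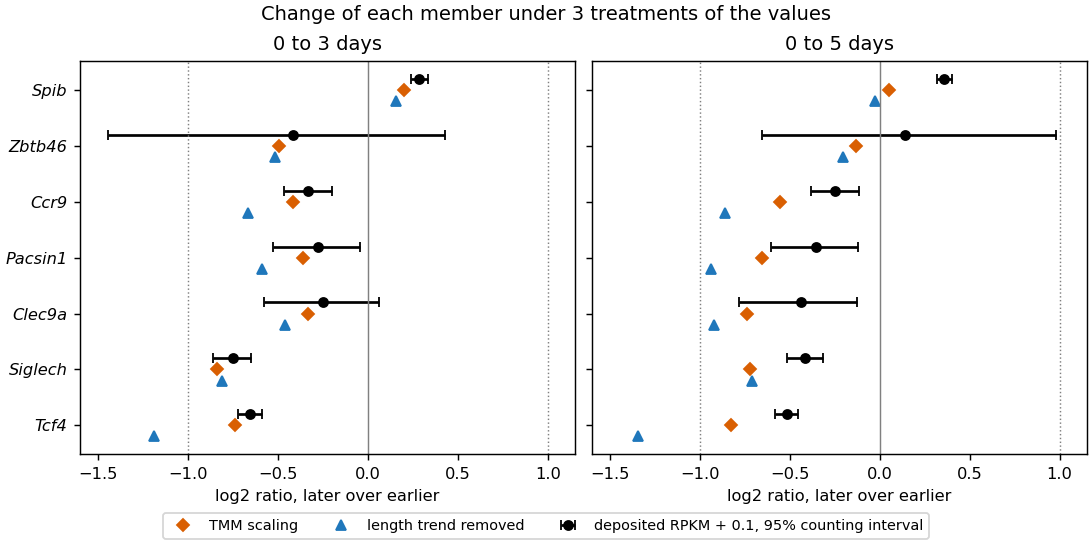
Log2 ratio of each gene at 3 days (left) and 5 days (right) over 0 days, with black points for the deposited RPKM + 0.1 and their 95% counting intervals, orange diamonds for TMM scaling and blue triangles for the values with the length trend removed; dotted lines mark 2-fold. Spib stays above 0 at 3 days under all 3 treatments and lies at −0.026 at 5 days with the length trend removed, Zbtb46 has the widest intervals, and Tcf4 passes 2-fold with the length trend removed.

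Of 20 further pDC genes, 17 reached 1 RPKM in the pair of 0 and 3 days. Of these 2 were 2-fold lower and 1 was 2-fold higher at 3 days, beside 2.21% and 4.00% of all genes. The median was −0.41, with 10 of 17 below 0. With the length trend removed none was 2-fold lower at 3 days, Bst2 being at −0.80 and Cox6a2 at −0.69. Bst2, a surface protein of pDC that interferon also induces, was the more abundant of the 2 genes that passed 2-fold downward, with 174, 74.3 and 73.9 RPKM at 0, 3 and 5 days. Cox6a2, a subunit of cytochrome oxidase known from muscle and pDC, had 53.7, 23.2 and 25.9 RPKM. Both, and Ptprs, were named after their values were seen. Tlr9, the receptor for unmethylated CpG DNA in pDC, B cells and macrophages, was the only one past 2-fold upward, with 4.79, 12.2 and 17.4 RPKM and log2 ratios of 1.33 (1.14 to 1.57) and 1.84 (1.66 to 2.06).
At 5 days 3 of 18 pDC genes were 2-fold lower (Bst2, Cox6a2 and Cd209d) and 2 were 2-fold higher (Tlr9 and Ptprs), beside 5.71% and 15.4% of all genes. Cd209d, a lectin of the same family as the LECT2 receptor CD209a, had the largest fall, from 14.1 to 7.35 and 5.64 RPKM. The most abundant of the list were Ly6d, a surface marker shared with early B cells, with 412, 311 and 250.4 RPKM, Pld4, an exonuclease of endolysosomes, with 133, 150.1 and 212 RPKM, and Irf8, a transcription factor of dendritic cells and monocytes, with 111, 113 and 172 RPKM. Ly6d was thus lower and Pld4 and Irf8 higher at 5 days. As deposited, the list had a median of −0.21 at 5 days, and TMM scaling took this to −0.52, where 7 genes were 2-fold lower and 2 higher, beside 9.74% and 7.12% of all 11497 genes. With the length trend removed the median was −0.47, with 0 genes 2-fold lower and 1 (Tlr9) 2-fold higher, beside 7.43% and 4.96% of all genes. Bst2, Cox6a2 and Cd209d then had log2 ratios of −0.92, −0.58 and −0.99 at 5 days, beside −0.71 for Siglech, so that they lost the 2-fold call and kept their direction.

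**Figure D3:**
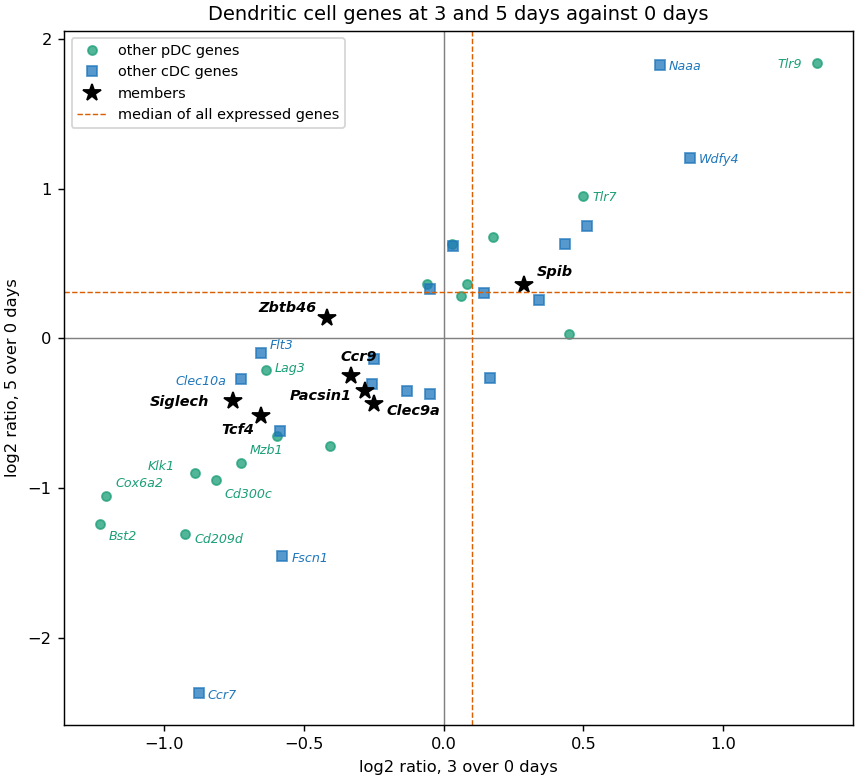
Log2 ratio at 5 days against log2 ratio at 3 days, both over 0 days, for the 7 members (stars), the other pDC genes (circles) and the other cDC genes (squares) with at least 1 RPKM; both axes share the library of 0 days, and dashed lines mark the median of all expressed genes, 0.10 and 0.31. Members other than Spib and Zbtb46 lie below 0 on both axes, with Bst2, Cox6a2 and Cd209d further down, Ccr7 and Fscn1 lowest at 5 days, and Tlr9 and Naaa far above.

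Of 23 further cDC genes, 0 of 18 were 2-fold higher or lower at 3 days, the median being −0.05. At 5 days 2 of 18 were higher (Naaa and Wdfy4) and 2 lower (Ccr7 and Fscn1), with a median of −0.09, beside 15.4% and 5.71% of all genes. Naaa, a lysosomal hydrolase of cross-presenting cDC and of macrophages, went from 19.4 to 33.2 and 68.8 RPKM. Wdfy4, needed for cross-presentation and also expressed in B cells, went from 17.4 to 32.1 and 40.3 RPKM, and was not 2-fold higher under TMM scaling or with the length trend removed. Ccr7, the receptor that brings mature dendritic cells and lymphocytes to lymph nodes, went from 66.5 to 36.2 and 12.8 RPKM, with a log2 ratio of −2.37 (−2.53 to −2.22) at 5 days. Fscn1, an actin-bundling protein of mature dendritic cells, had 51, 32 and 16 reads. Ccr7 and Fscn1 were 2-fold lower under TMM scaling and with the length trend removed too. Wdfy4 and Fscn1 were named after their values were seen.
Clec9a thus stood among cDC genes of both directions. Xcr1, the chemokine receptor of the same cDC as Clec9a, had 55, 31 and 35 reads, and Batf3, a transcription factor of that lineage, had 19, 12 and 12 reads. The interval of Xcr1 lay below 0 at both times and that of Batf3 included 0. Flt3, the receptor of the shared progenitors, went from 14.5 to 9.21 and 13.6 RPKM, low at 3 days and, as deposited, within counting error of its 0-day level at 5 days (log2 ratio −0.09, −0.24 to 0.05). Its 5-day ratio was −0.40 under TMM scaling and −0.63 with the length trend removed. Cd209a, the receptor of LECT2, had 10.4, 8.68 and 8.38 RPKM, with log2 ratios of −0.26 (−0.54 to 0.02) and −0.30 (−0.59 to −0.03). These 4 genes were named after their values were seen, and all 4 were lower at both times as deposited. The list as a whole was split, with 9 of the 17 genes that average 1 RPKM or more below 0 at 3 days and 9 at 5 days. Mgl2 (0.62, 0.29 to 0.97) and Ifi205 (0.75, 0.24 to 1.34), also named after their values were seen, were among those higher at 5 days. The most abundant genes of the list, Cd24a, Sirpa and Irf4, are shared with many other marrow cells. At 0, 3 and 5 days Cd24a had 1325, 1280 and 1026 RPKM, Sirpa 82.2, 104 and 98.0 RPKM, and Irf4 66.3, 74.4 and 55.2 RPKM.

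Genes that act with the members formed another list. They hold the other E proteins and their inhibitors, the adaptors of Siglech and the Toll-like receptors, and the ligands of Ccr9 and Flt3. Of 19 listed, 17 reached 1 RPKM, and their medians were 0.13 at 3 days and 0.16 at 5 days, the latter turning to −0.15 under TMM scaling and −0.061 with the length trend removed. None was 2-fold changed at 3 days, and at 5 days 2 were 2-fold higher (Zeb2 and Etv6) and 0 lower, beside the same 15.4% and 5.71% of all genes. Zeb2, a repressor needed for pDC and monocyte development, went from 13.2 to 25.9 and 36.6 RPKM, and was 2-fold higher under TMM scaling but not with the length trend removed. Etv6, an Ets family repressor that acts with Tcf4 in pDC, went from 15.0 to 22.2 and 31.8 RPKM, and its 2-fold call was lost under TMM scaling and with the length trend removed.
Tcf3, another E protein, which is needed for B cells, went the other way from Tcf4, with 69.3, 81.7 and 109 RPKM, so that Tcf3 over Tcf4 per length was 1.57 at 0 days, 2.92 at 3 days and 3.53 at 5 days. Both values of a library share its scaling, so this ratio does not depend on TMM factors, although it is not corrected for the length of the transcripts. Of the Id proteins that bind and block E proteins, Id2 had 58.3, 49.1 and 53.1 RPKM and Id3 12.5, 7.94 and 8.29 RPKM. Tyrobp, the adaptor of Siglech and of many myeloid receptors, had 889, 874 and 560.3 RPKM. Unc93b1, which carries Toll-like receptors to endosomes, had 210.2, 229 and 255 RPKM. Sfpi1, an older name of Spi1, the Ets factor closest to Spib, had 193, 247 and 215 RPKM. Ccl25, the ligand of Ccr9, had 30, 27 and 28 reads. Etv6, Tcf3, Id2, Id3, Pacsin2 and Ccl25 were named after their values were seen.

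Markers of other marrow cells differed in how far they moved. Summed over 11 markers of macrophages and monocytes, the levels at 0, 3 and 5 days were 371, 539 and 740.1 RPKM. At 5 days 6 of 11 genes were 2-fold higher and 0 lower, beside 15.4% and 5.71% of all genes, with a median of 1.08. Summed over 7 late neutrophil markers the level was 98388, 74749.8 and 22538 RPKM, a sum made up mostly of S100a8 and S100a9. At 3 days 3 of the 6 expressed genes were below 0, with a median of −0.10, or 0.28 with the length trend removed. At 5 days 6 of 6 were 2-fold lower, beside 5.71% of all genes, with a median of −2.01. Under TMM scaling and with the length trend removed, 3 of the 11 macrophage and monocyte genes were 2-fold higher at 5 days, beside 7.12% and 4.96% of all genes. The 6 late neutrophil genes were 2-fold lower under both, beside 9.74% and 7.43% of all genes. S100a9, a calcium-binding protein that fills the cytoplasm of neutrophils, had 467642 reads at 0 days and 106238 at 5 days. Naaa, Tlr9, Zeb2 and Irf8, which were higher at 5 days, are known from macrophages and monocytes too. The part of either cell type in the values of the members was not tested. Medians for the T and NK cell markers were −0.84 at 3 days and −0.57 at 5 days, for the B cell markers 0.00 and −0.19, for the endothelial markers (3 genes) −0.65 and −0.06, for the erythroid markers 0.05 and 0.07, and for the plasma cell markers −0.16 and 0.20. Those of the erythroid markers turned negative under TMM scaling (−0.031 and −0.24) and with the length trend removed (−0.14 and −0.15), as did that of the plasma cell markers at 5 days (−0.11 and −0.24). The 5-day medians under these 2 settings were −0.50 and −0.36 for the B cell markers and −0.36 and −0.52 for the endothelial markers. None of the listed markers of T and NK cells, B cells or late neutrophils with a row was at 0 reads in any library. The summed level of the 7 members, which Spib dominates, was 292, 287 and 309.6 RPKM.

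**Figure D4:**
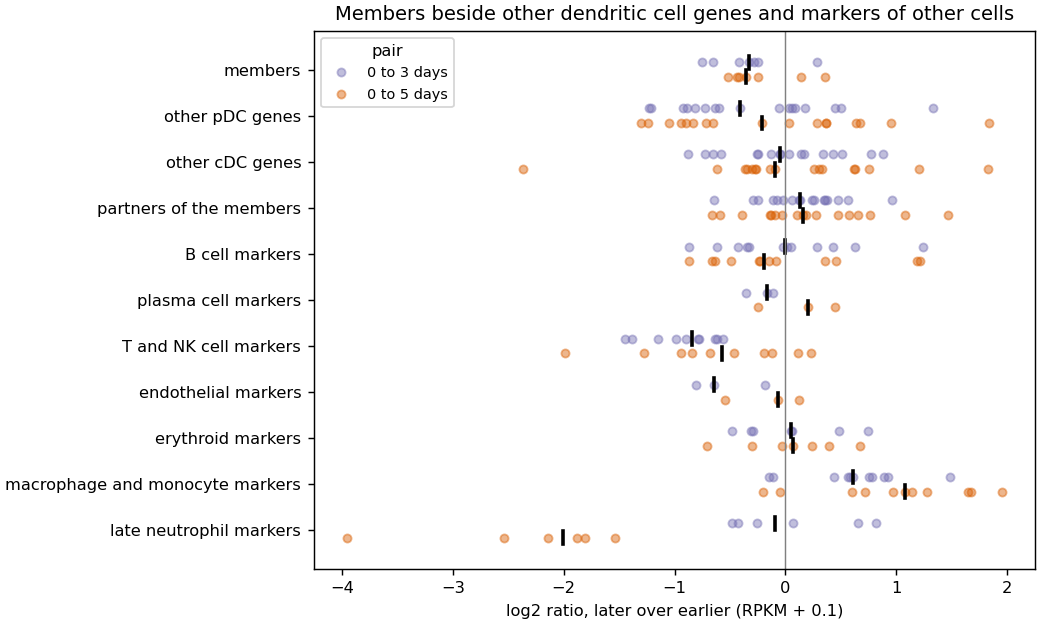
Log2 ratio at 3 days (purple) and 5 days (orange) over 0 days for the 7 members and for the genes of each list that average 1 RPKM or more, with black bars for medians. The members lie between −0.75 and 0.36, the late neutrophil markers lie between −3.96 and −1.54 at 5 days, and the macrophage and monocyte markers lie mostly above 0.

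The genes whose 2 log2 ratios over 0 days lay closest to those of Siglech, among 11143 genes, were Fdx1, Ascc1 and Tmem91, at Euclidean distances of 0.0168, 0.0175 and 0.0207. Those closest to Clec9a were Tecr, Ghitm and Zfp281, at 0.0118, 0.0121 and 0.0176. None is on the dendritic cell lists. With 3 libraries such patterns are common, as 47 genes lay within 0.1 of Siglech and 102 within 0.1 of Clec9a.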

How the data were processed

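RNA-seq of flushed mouse BM was analysed in 3 libraries, 1 each at 0, 3 and 5 days of LECT2. The authors deposited tables for the 3 pairs of days with whole read counts per gene, the RPKM and the transcript length. The deposited RPKM equalled the counts over the length and over all reads on listed genes (relative tolerance 1e-06), apart from 18 rows at 0 days and 14 at 3 days, none of them a member. The methods name Cufflinks for the quantitation and the submitters' processing notes name the build mm8, while the aligner is not given in the sources used here. The tables' columns of log2 ratios, P values and false discovery rates hold the authors' own comparisons and were not used. Reads on genes summed to 15523952 (0 days), 15146983 (3 days) and 15514673 (5 days), so that 1 read on a transcript of 1 kilobase was worth 0.0644 RPKM at 0 days.

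Log2 ratios were computed from RPKM with a pseudocount of 0.1, which understates changes of low genes. Intervals (95%, exact, scipy 1.17.1) cover counting error only, because each time point has 1 library. They also treat all reads as independent, which PCR copies of a molecule are not. Genes were called at 2-fold with at least 1 RPKM in either library, and a library with 3 reads or fewer was treated as at the floor. List medians cover genes that average 1 RPKM or more. Where a symbol had several rows, the one with the highest mean RPKM was used. Alternatives were TMM factors (edgeR 4.0.16), median-of-ratios size factors (DESeq2 1.42.0), the reads outside the 100 most abundant genes, removal of the lowess trend on gene length (span 0.3, statsmodels 0.14.6), pseudocounts of 1 and 0.01, row sums, a minimum of 5 RPKM or none, and a 1.5-fold threshold. The steps were tested on simulated counts. Gene positions (GENCODE M21) and promoters (RefSeq) are on GRCm38, another build than that of the tables.

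The members and lists were chosen with earlier results of these data known. Named were the members, the 3 most abundant genes of each list with its largest rise and fall at 5 days, and the 3 genes closest in pattern to Siglech and Clec9a. In lists other than those of dendritic cells and partners, only some of these are named. Further list genes are marked as chosen after their values were seen. Neighbouring genes are named for their position.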

Additional observations from a re-analysis of the deposited data

How the results depend on the processing

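No alternative made a member 2-fold higher, and pseudocounts of 1 and 0.01 and row sums left all 21 member values (7 genes, 3 pairs) within their counting intervals. TMM factors moved 11 of the 21, median-of-ratios size factors 11, leaving out the 100 most abundant genes 8 and removal of the length trend 15, in each case downward. The median of the members at 3 days was −0.59 with the length trend removed. The 5-day median was −0.65 with TMM, −0.64 with median-of-ratios size factors and −0.86 with the length trend removed. The median between 3 and 5 days turned from 0.08 to −0.14, −0.13 and −0.19 under the same 3 settings. With the length trend removed 1 member, Tcf4, was 2-fold lower at 3 days and 1, again Tcf4, at 5 days. With a 1.5-fold threshold 2 members, Siglech and Tcf4, were lower at 3 days and 0 at 5 days (shares of all genes are given above, apart from that for 1.5-fold at 5 days). Spib at 5 days reversed to −0.026 with the length trend removed. Between 3 and 5 days Tcf4 reversed to −0.087 under TMM, −0.081 under median-of-ratios size factors and −0.18 with the length trend removed, and Spib to −0.15, −0.14 and −0.19, and to −0.032 without the 100 most abundant genes. The cause of these shifts was not tested. No paired analysis was possible because each time point has 1 library and no test was run. Among the members depth limits Zbtb46 most, with 18 to 29 reads, and several list genes had fewer.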

Other observations

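Several genes had few reads in these tables. Irf7, a regulator of the interferon response listed among the pDC genes, had 9, 9 and 10 reads at 0, 3 and 5 days. Csf3r, the receptor of granulocyte colony-stimulating factor on neutrophils, had 25, 57 and 20 reads while the late neutrophil marker S100a9 stood at 61729 RPKM at 0 days. Tcf12, the remaining E protein, had 2, 0 and 1 reads, and Xbp1, a transcription factor of secretory cells, had 10, 27 and 44. These genes were chosen after their values were seen. Whether a low row in these tables means a low transcript level was not tested, for these genes or for Zbtb46.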
